A study of Mus musculus with 12 samples.

Results

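The diet by injury interaction asks whether the effect of a brain injury on a transcript differs between diets. It was taken as the injury effect on the fish oil diet (injured minus sham) minus the injury effect on the purified diet, on the log2 scale, so a value above 0 means that the injured libraries stood higher against their shams on fish oil than on the purified diet. All 12 of the 12 libraries of the series entered 1 fit, and 19252 of the 53379 genes in the count table had enough reads to be tested. The tissue was cortex of C57BL/6J mice of wild-type genotype, collected 6 months after repeated closed-head impacts below the severity of a mild traumatic injury (rlmTBI) or after a sham procedure. The 4 groups had 3 libraries each, with the replicate numbers 2, 3 and 4. Purified sham and purified injured mice ate a purified control diet without interruption, while fish oil sham and fish oil injured mice were fed in cycles on a high-fat diet to which fish oil had been added. Fat content, fish oil and the feeding schedule therefore cannot be told apart in any value that involves diet. The labels do not say whether each library is a separate animal or a pool, so each p-value reflects how these libraries vary, which may be partly technical. They name the tissue as brain and, for the series, as injured cortex.

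Some of the genes described below have well-known roles. Immediate early genes are transcribed within minutes when neurons fire, without new protein synthesis, and many encode transcription factors such as those of the Fos and Egr families. Homer1 and Arc act at excitatory synapses, and Bdnf encodes a secreted growth factor that neurons release with activity. Interferon-stimulated genes are switched on when interferons activate the STAT and IRF transcription factors, and they encode antiviral proteins; in the brain microglia, endothelium and other cells carry this response. Perilipins coat lipid droplets. Fish oil supplies long-chain omega-3 fatty acids, which are built into membranes and compete with arachidonic acid in the making of prostaglandins.

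Total counts ran from 46362158 to 70754854 per library, and 23207 to 24579 genes had at least 1 count. Values below are counts scaled to library size with TMM factors (CPM), with the libraries of a group always in the order of replicates 2, 3 and 4. Several libraries were high in transcripts typical of neighbouring regions. The labels do not say how the cortex was dissected, and whether these transcripts came from dissection or differed with the groups was not tested. The mean log2 CPM of 16 choroid plexus genes, centred on all libraries, was 3.58 and 3.60 in fish oil injured replicates 3 and 4 and 1.25 in purified sham replicate 3, and lay between -1.89 and 0.84 in the others. That of 12 olfactory bulb genes was 4.10 in purified injured replicate 3 and at most 0.61 elsewhere, and that of 15 striatal genes was 2.97 in fish oil sham replicate 2 and 1.69 in purified sham replicate 4. In bulk tissue, fewer cells of a type and less RNA per cell cannot be told apart. The libraries also differed in how log2 CPM followed the GC content of transcripts: the correlation across 10111 protein-coding genes was 0.41 in purified injured replicate 2 and -0.47 in fish oil injured replicate 2, and lay between -0.17 and 0.25 in the other 10.

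No gene passed the interaction test. With edgeR's quasi-likelihood test and Benjamini-Hochberg adjustment over all 19252 genes, 0 genes (0%) had an adjusted p under 0.05, and the smallest adjusted p was 0.82, so each interaction given below, with its standard error, has an adjusted p of 0.82 or more. At an unadjusted p under 0.05 there were 1108 genes (5.76%), of which 549 (2.85%) had an interaction above 0 and 559 (2.9%) below 0. Each of the 4 contrasts between neighbouring groups also had 0 genes (0%) after adjustment, and at an unadjusted p under 0.05 they held 1251 genes (6.5%) for injury on the purified diet, 670 (3.48%) for injury on fish oil, 710 (3.69%) for diet in sham and 2063 (10.7%) for diet in injured mice. limma-voom called 0 genes for the interaction and had 984 at an unadjusted p under 0.05. DESeq2 called 21, among them genes of the choroid plexus such as Ttr (9.03, adjusted p = 0.000106), F5 (6.44) and Slc4a5 (9.41), of which 9 stood in the choroid plexus list, and its calls also held Plin4 (2.55, adjusted p = 0.00136) and Sox12 (-1.08, adjusted p = 0.0248), the single gene called below 0. In counts simulated for the interaction on the same 19252 genes, the test found 17 of 100 genes given a 2-fold difference and 82 of 100 given a 4-fold one. In such counts, differences of 2-fold between the injury effects were mostly below what 3 libraries per group can show. The shares do not carry over to weaker genes or to genes that follow those library differences.

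The injury effects on the purified and fish oil diets did not follow each other across genes. They share no library. Pearson's r across the 19252 genes was -0.065 and Spearman's rho -0.082, given as a description, since genes are not independent replicates. The log2 fold changes had opposite signs in 10359 genes (53.8%). Both reached at least 0.5 in opposite directions in 772 genes: 270 (1.4%) were lower after injury on the purified diet and higher on fish oil, and 502 (2.61%) were the other way round. Both reached it in the same direction in 279 genes (1.45%, higher in both) and 341 genes (1.77%, lower in both). These size counts depend on how weakly expressed genes are treated: with a minimum of 1 CPM in 3 libraries they were 80 and 149 in opposite directions. Over all genes the median injury effect was 0.003 on the purified diet and -0.005 on fish oil.

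**Figure D1:**
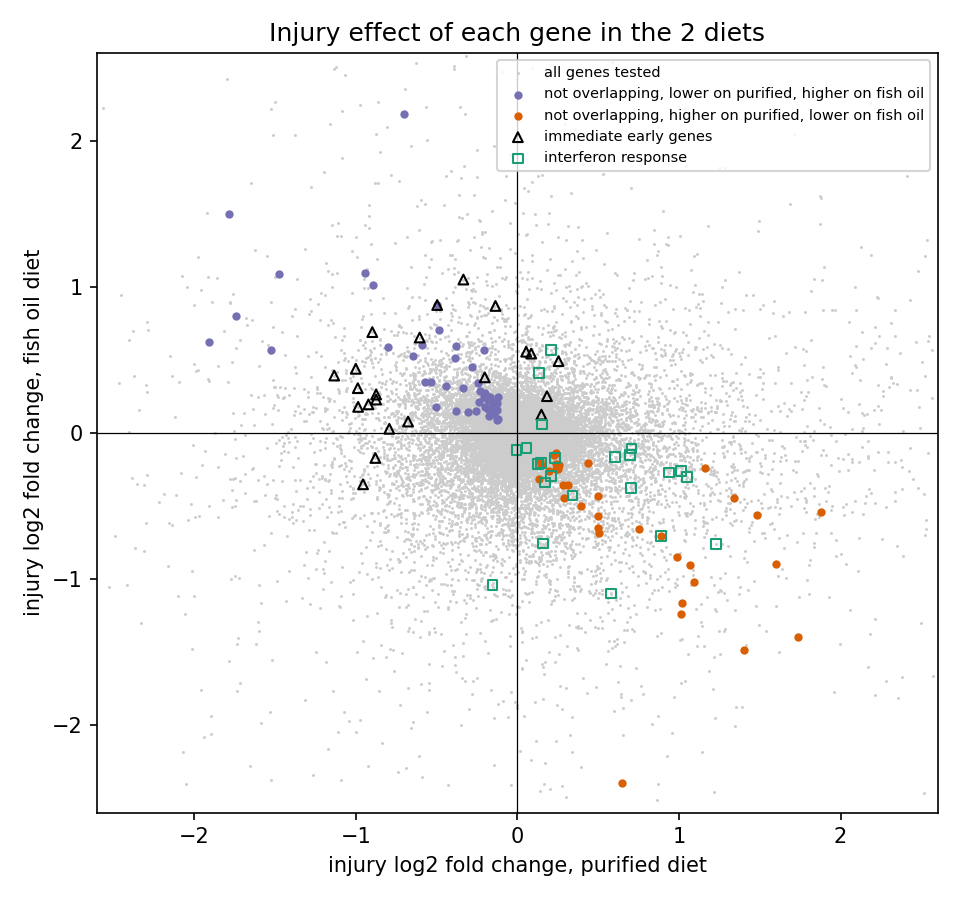
Injury log2 fold change on the purified diet (x axis) and on the fish oil diet (y axis) for each gene tested; 238 genes with a value beyond 2.6 on either axis are not drawn. Coloured dots are the 49 and 34 genes whose injured and sham libraries did not overlap in either diet, in opposite directions; open triangles are the 22 immediate early genes and open squares the 23 interferon response genes, which lie mostly in the upper left and lower right of the plot.

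A stricter description used the libraries themselves. In 83 genes all 3 injured libraries lay beyond all 3 sham libraries in both diets, but in opposite directions: 49 (0.255%) were lower after injury on the purified diet and higher on fish oil, and 34 (0.177%) were higher on the purified diet and lower on fish oil. For comparison, 18 genes (0.0935%) were higher after injury in both diets and 38 (0.197%) lower in both. Within a single diet such separation was common. On the purified diet 948 genes (4.92%) were separated upward and 1286 (6.68%) downward, and on fish oil 956 (4.97%) and 1007 (5.23%). With shares of this size, some genes would cross in opposite directions even if separation in each diet were unrelated. Whether the 49 and 34 genes exceed that number was not tested. The 83 genes therefore describe these libraries and are not a set shown to respond differently by diet. The split between the opposite directions moved with scaling, from 49 and 34 with TMM to 41 and 39 with RLE factors and 35 and 44 with upper-quartile factors.

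The sets that crossed in opposite directions differed in size of effect, in transcript class and in base composition. The median interaction was 0.52 in the 49 genes and -1.11 in the 34, and 0.42 and -0.67 in the 45 and 22 of them with at least 1 CPM in 3 libraries. Protein-coding genes made up 43 of the 49 and 25 of the 34. Their transcripts had a median GC content of 44.3% in the first set and 55.2% in the second, against 49.8% over 15397 protein-coding genes tested, and median lengths of 3868 and 2836 bases against 3413. After the GC trend of each library was removed, 36 and 32 genes crossed without overlap, and the median interactions of the 49 and 34 genes were 0.44 and -1.02. In 10 equal bins of genes ordered by GC content, the median interaction was 0.10 in the bin with the lowest GC and -0.10 in the bin with the highest. With the trend removed, no bin had a median beyond 0.02 in either direction. This follows from the removal itself, since the trend was fitted over the same genes and GC values.

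**Figure D2:**
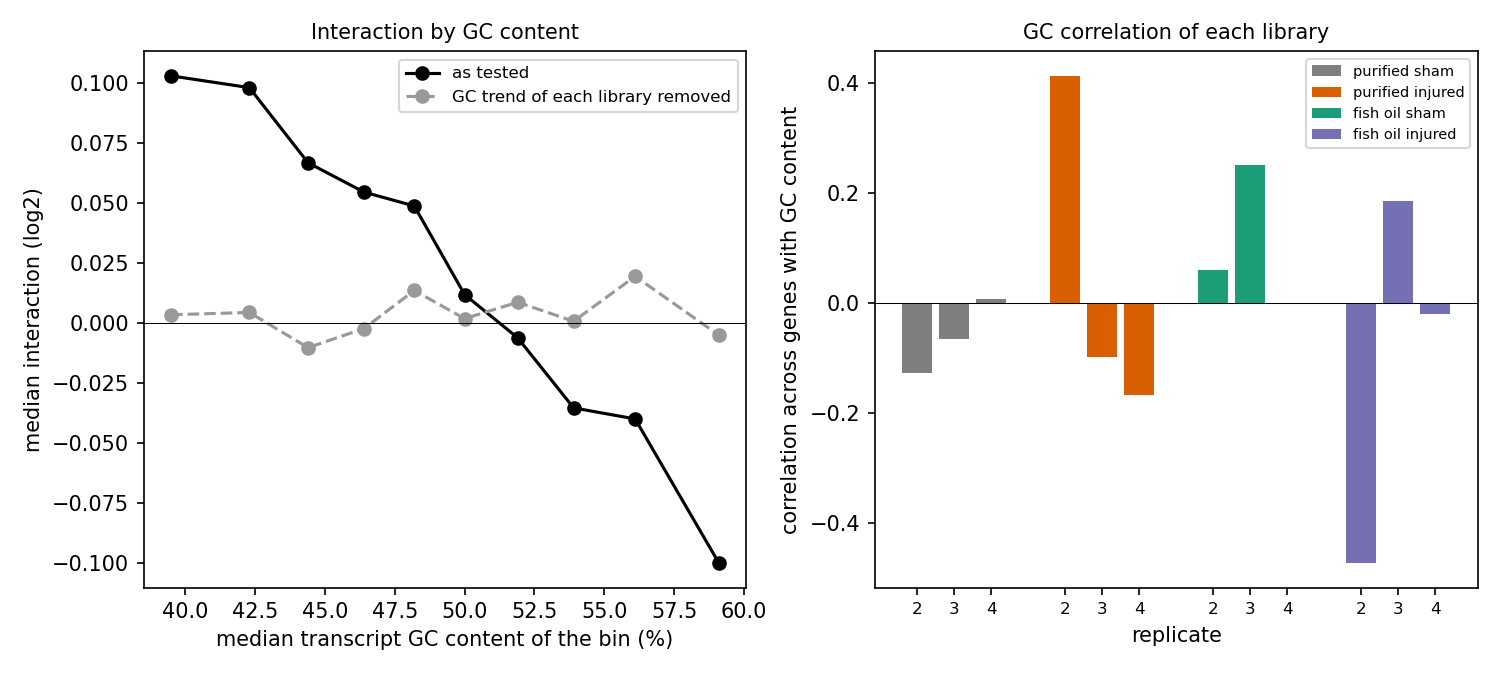
Left, median interaction (log2) in 10 equal bins of 10111 protein-coding genes ordered by transcript GC content, as tested (solid) and with the GC trend of each library removed (dashed). The dashed line is flat by construction, since the trend was fitted over the same genes. Right, correlation across genes between centred log2 CPM and GC content in each library; purified injured replicate 2 (0.41) and fish oil injured replicate 2 (-0.47) stand at opposite ends.

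Plin4, which encodes perilipin 4, a coat protein of lipid droplets, had the smallest interaction p of all genes. The gene lies on chromosome 17, 56100591 to 56109803 (GRCm38). Plin4 was at 5.47, 4.92 and 9.21 CPM in the purified sham libraries, 2.86, 1.28 and 2.901 in the purified injured, 2.83, 1.94 and 1.86 in the fish oil sham and 4.09, 4.299 and 5.697 in the fish oil injured. Purified sham and fish oil injured libraries were high, purified injured and fish oil sham libraries were low, and no library of a high group overlapped one of a low group that it neighbours in the design. The injury effect was -1.48 on the purified diet and 1.09 on fish oil, and the diet effect was -1.56 in sham and 1.00 in injured mice. The interaction was 2.56 ± 0.49 (SE), with an edgeR adjusted p of 0.82. It lay between 2.23 and 2.82 in every alternative fit, those without any 1 library included, and was 2.63 with the GC trend removed. Plin4 is also induced by glucocorticoids, and 14 of the 17 glucocorticoid-induced genes on the list it belongs to had an interaction above 0, with a median of 0.27. Only Plin4 of these had a p under 0.05. Zbtb16, a transcription factor of that list, was nearest, at 1.23 ± 0.60, and 0.78 without fish oil sham replicate 2. Without fish oil sham replicate 3 the list median was 0.14.

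Bdnf, Homer1 and Ptgs2, whose transcripts follow neuronal activity, were also lower after injury on the purified diet, and on fish oil the mean of each was higher after injury. Bdnf (chromosome 2, 109674700 to 109727007) was at 49.2, 52.5 and 44.4 CPM in the purified sham libraries, 30.2, 28.6 and 38.1 in the purified injured, 25.1, 34.4 and 33.3 in the fish oil sham and 63.3, 41.2 and 36.6 in the fish oil injured. All purified sham libraries were above all purified injured ones, all fish oil injured libraries were above all fish oil sham ones, and the injured libraries of the diets overlapped. The injury effect was -0.59 on the purified diet and 0.60 on fish oil, an interaction of 1.20 ± 0.28. Homer1 (chromosome 13, 93299635 to 93405129), which encodes a scaffold protein of excitatory synapses with a short activity-induced form that gene-level counts do not separate, was at 318, 398 and 363 CPM in the purified sham libraries, 221, 289 and 255 in the purified injured, 185, 214 and 223 in the fish oil sham and 549.5, 249 and 343 in the fish oil injured. Again both diets were separated, in opposite directions, and the highest value was that of fish oil injured replicate 2. The interaction was 1.37 ± 0.33, and without fish oil injured replicate 2 it was 1.01, while that of Bdnf was 0.93. Ptgs2, the inducible cyclooxygenase that makes prostaglandins and is expressed by cortical neurons with activity, was at 36.6, 54.02 and 43.01 CPM in the purified sham libraries, 20.2, 23.4 and 24.5 in the purified injured, 14.3, 24.8 and 10.03 in the fish oil sham and 34.3, 23.2 and 18.9 in the fish oil injured. Its sham and injured libraries were separated on the purified diet and overlapped on fish oil, with an interaction of 1.61 ± 0.43.

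**Figure D3:**
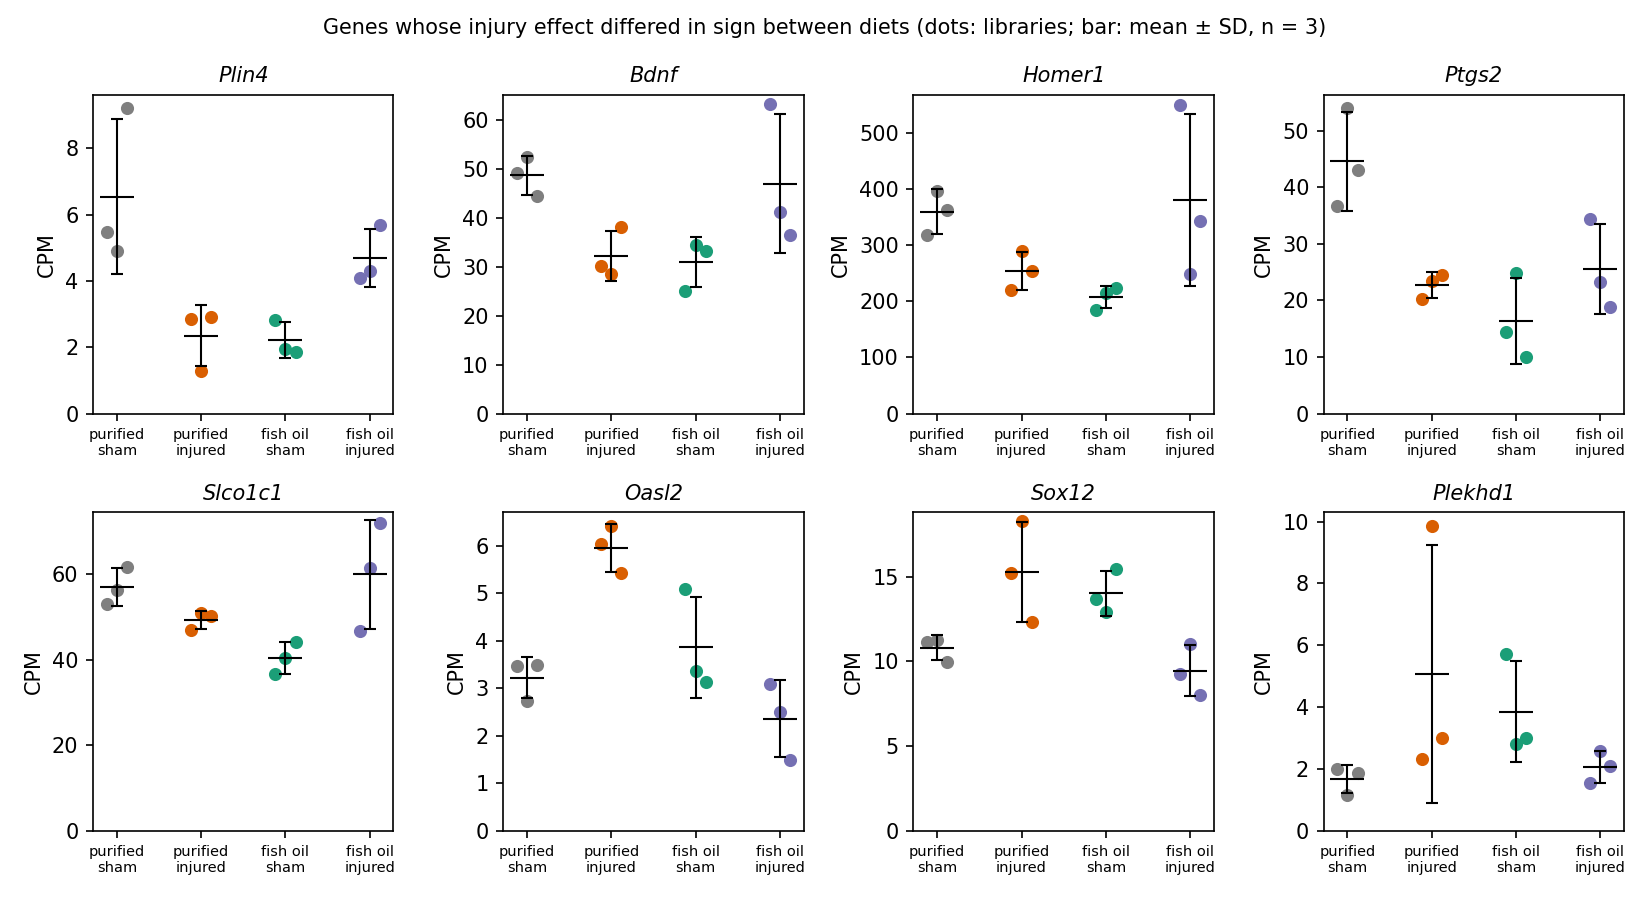
CPM of 8 genes in every library (dots, replicates 2, 3 and 4 from left to right in each group) with the mean and SD of each group (n = 3); each y axis starts at 0. Plin4, Bdnf, Homer1 and Slco1c1 are lower in injured than in sham libraries on the purified diet and higher on fish oil, Oasl2, Sox12 and Plekhd1 are the other way round, and Ptgs2 overlaps on fish oil.

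The immediate early genes as a list leaned the same way. All 22 were tested, and 21 had an interaction above 0, with a median of 1.05, against 9163 of the 19252 genes and a median of -0.02. Of the 22, 7 (against 2.85% of all genes) had an interaction above 0 with an unadjusted p under 0.05 and none passed after adjustment over all genes. These 7, named after their values were seen, were Homer1, the transcription factors Egr1, Egr3 and Egr4, the synaptic gene Arc, the phosphatase Dusp6, which acts on ERK kinases, and Ier5. The median injury effect was -0.73 on the purified diet, where 17 of 22 were lower after injury, and 0.34 on fish oil, where 20 were higher; 15 were lower on the first and higher on the second and 0 were the reverse. The median diet effect was -0.89 in sham mice and 0.10 in injured mice. All gene lists were chosen with earlier results of these data known. The share of a list set beside that of all genes, here and below, is therefore a description.

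Egr3, a zinc finger factor induced by activity, was at 235, 211 and 171 CPM in the purified sham libraries, 109, 169 and 128 in the purified injured, 81, 134 and 110.3 in the fish oil sham and 238, 132 and 142 in the fish oil injured. Purified sham libraries were the highest of the first diet, and fish oil injured replicate 3 at 132 lay just under fish oil sham replicate 3 at 134, so the fish oil groups overlapped. The interaction was 1.26 ± 0.36. Arc, whose protein regulates receptor trafficking at synapses, was at 371, 279 and 270.0 CPM in the purified sham libraries, 147, 162 and 111 in the purified injured, 67.5, 251 and 123 in the fish oil sham and 293, 168 and 119 in the fish oil injured. Arc was lower in every purified injured library than in any purified sham library, while on fish oil the groups overlapped, with an interaction of 1.52 ± 0.61. Fos, the best known gene of the class, was at 111, 85.9 and 63.4 CPM in the purified sham libraries, 32.9, 55.96 and 42.5 in the purified injured, 33.8, 53.7 and 31.2 in the fish oil sham and 77.9, 45.3 and 11.1 in the fish oil injured. Its fish oil injured libraries held both a high and the lowest value of all 12, and the interaction was 1.16 ± 0.74.

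The separation of the list rested on the purified diet. Its mean centred log2 CPM was 0.74, 0.49 and 0.32 in the purified sham libraries, above -0.30, 0.28 and -0.18 in the purified injured ones. It was -0.69, 0.07 and -0.47 in the fish oil sham libraries and 0.60, 0.08 and -0.95 in the fish oil injured ones. Fish oil injured replicate 4 was thus the lowest of all libraries and replicate 2 the second highest. The median interaction of the list was 0.66 without fish oil injured replicate 2, 0.55 without that library and purified injured replicate 2, and 2.03 with the scores of choroid plexus, striatal and olfactory bulb genes as covariates. The 20 excitatory synapse genes had a median interaction of 0.06 and the 16 inhibitory synapse and interneuron genes 0.15, nearer to the median of all genes. In the inhibitory list 3 genes (against 2.85% of all genes) had an interaction above 0 with an unadjusted p under 0.05. Medians were 0.28 for 15 cortical layer genes and -0.20 for 16 hippocampal and thalamic genes. The striatal (-0.73) and olfactory bulb (-4.52) lists are described below. In the excitatory list the NMDA receptor subunit Grin2a had an interaction of 0.91 ± 0.34, and 0.19 with those tissue scores as covariates.

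**Figure D4:**
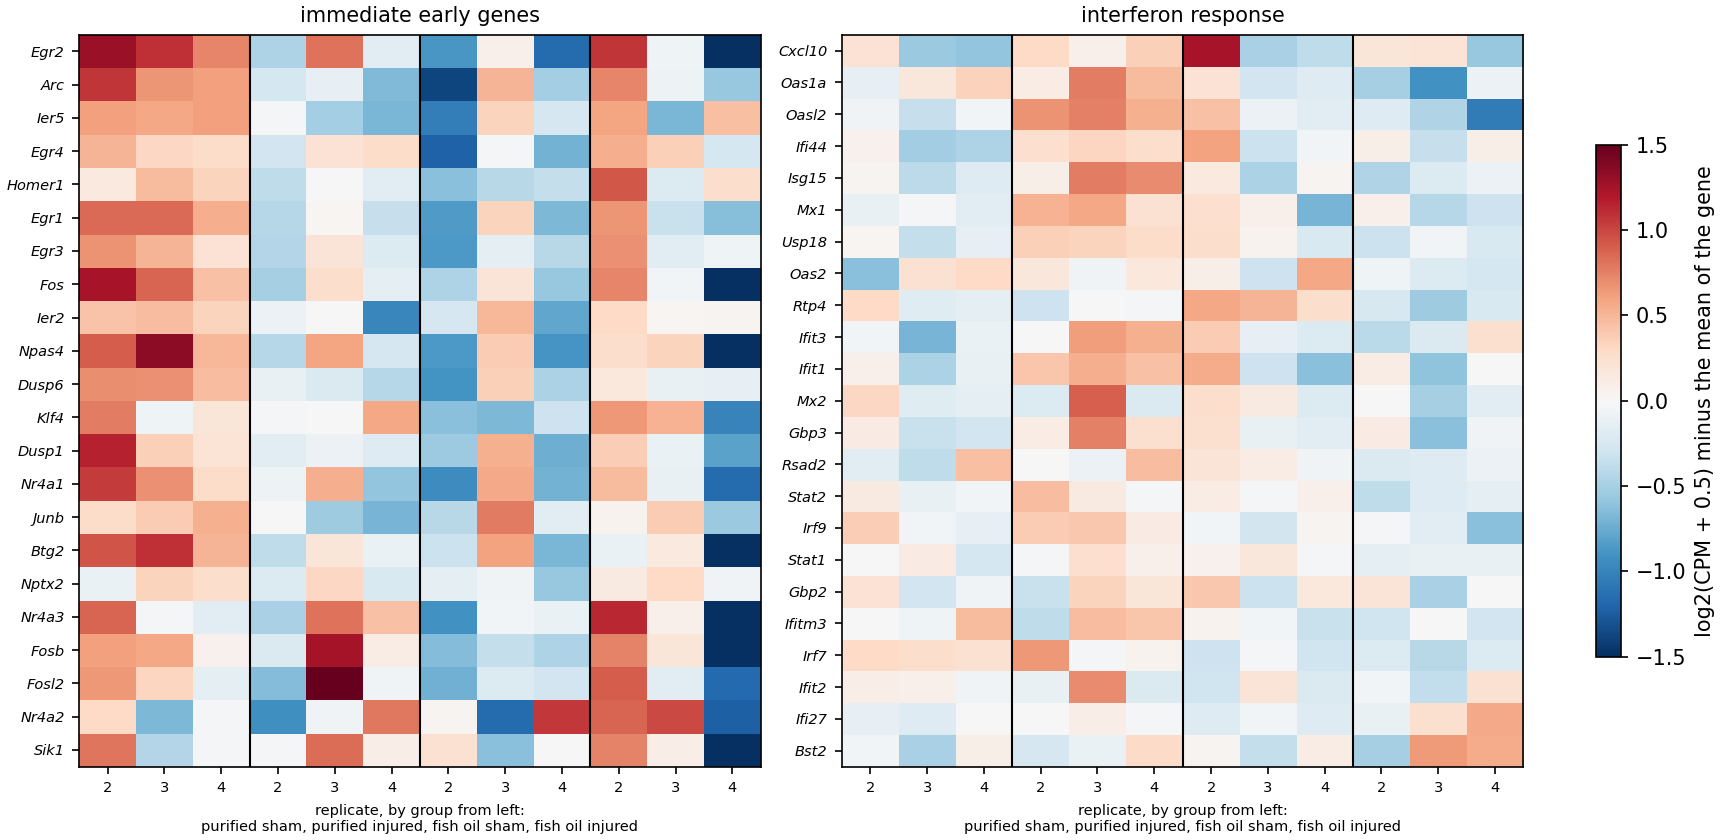
log2(CPM + 0.5) of each immediate early gene (left) and interferon response gene (right), minus the mean of the gene over the 12 libraries, in every library; groups are divided by black lines and genes ordered by interaction. Immediate early genes are on average higher in purified sham than in purified injured libraries and split within the fish oil injured group, where replicate 2 is high, and interferon response genes are on average higher in purified injured than in purified sham libraries, with fish oil sham replicate 2 also high.

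Interferon response genes leaned the opposite way. All 23 on the list were tested, and 21 had an interaction below 0, with a median of -0.77. Of the 23, 6 (against 2.9% of all genes) had an interaction below 0 with an unadjusted p under 0.05 and none passed after adjustment. The median injury effect was 0.23 on the purified diet and -0.26 on fish oil, and 18 of the 23 were higher after injury on the first and lower on the second, with 0 the reverse. The mean centred log2 CPM of the list was 0.04, -0.28 and -0.07 in the purified sham libraries and 0.21, 0.50 and 0.35 in the purified injured ones, which were all higher. It was 0.36, -0.17 and -0.16 in the fish oil sham libraries and -0.18, -0.42 and -0.19 in the fish oil injured ones, which were all lower, by as little as 0.01 for the nearest pair. The list median was -0.50 without fish oil sham replicate 2, the library highest in striatal genes, and -0.38 with the other-tissue scores as covariates.

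Oasl2, an antiviral protein related to the oligoadenylate synthetases (chromosome 5, 114896936 to 114912234), was the one member that crossed without overlap. It was at 3.46, 2.72 and 3.48 CPM in the purified sham libraries, 6.03, 6.42 and 5.42 in the purified injured, 5.08, 3.35 and 3.13 in the fish oil sham and 3.09, 2.49 and 1.48 in the fish oil injured. Purified injured libraries were the 3 highest of all 12 and fish oil injured libraries the lowest of their diet. The injury effect was 0.89 on the purified diet and -0.71 on fish oil, an interaction of -1.59 ± 0.40, which was -0.59 with the other-tissue scores as covariates. Stat2, a transcription factor that carries the interferon signal to the nucleus, was at 25.7, 21.8 and 22.9 CPM in the purified sham libraries, 32.5, 25.8 and 23.1 in the purified injured, 25.4, 22.99 and 24.9 in the fish oil sham and 17.9, 20.4 and 21.2 in the fish oil injured. The purified groups overlapped, while all fish oil injured libraries were below all fish oil sham ones, with an interaction of -0.51 ± 0.19. Isg15, a ubiquitin-like modifier and among the genes most strongly induced by interferon, was at 1.09, 0.681 and 0.856 CPM in the purified sham libraries, 1.14, 2.14 and 2.04 in the purified injured, 1.22, 0.62 and 1.098 in the fish oil sham and 0.636, 0.842 and 0.962 in the fish oil injured, with an interaction of -1.28 ± 0.51. Ifit3, which belongs to a family that binds viral RNA, was at 8.83, 5.41 and 8.47 CPM in the purified sham libraries, 9.16, 14.3 and 13.4 in the purified injured, 12.04, 8.31 and 7.798 in the fish oil sham and 6.72, 7.76 and 10.8 in the fish oil injured, with an interaction of -0.85 ± 0.37. In Isg15 and Ifit3 the purified injured libraries were above the purified sham ones and the fish oil groups overlapped. Usp18, which removes Isg15 from proteins, and Rtp4 were the remaining members with a p under 0.05, at -1.08 ± 0.43 and -0.89 ± 0.39. Isg15, Ifit3, Usp18 and Rtp4 were named after their values were seen. Iigp1, an interferon-inducible GTPase outside the list, was among the 10 smallest p below 0 of genes with a mean of at least 1 CPM, at -1.63 ± 0.47, and -0.94 with the other-tissue scores.

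The promoters of Isg15, Ifit3 and Stat2, members with an interaction below 0, are shown as examples that hold the element through which interferon acts. They were picked after the values were seen. In RefSeq windows of 300 bases (250 before to 50 after each annotated start, GRCm38.p6), 16 of the 23 genes were matched. The interferon-stimulated response element, searched on both strands as GAAA, any 2 bases and GAAA after the values were seen, was present in 11 of the 16 (68.8%), against 3.99% of the 27025 genes in the table. The 250 bases before each start follow, 5′ to 3′ in the direction of the gene, with every match in capitals; matches in Isg15 overlap and span 78 to 57 bases before the start.
Isg15 (chr4:156200819-156201068, minus strand): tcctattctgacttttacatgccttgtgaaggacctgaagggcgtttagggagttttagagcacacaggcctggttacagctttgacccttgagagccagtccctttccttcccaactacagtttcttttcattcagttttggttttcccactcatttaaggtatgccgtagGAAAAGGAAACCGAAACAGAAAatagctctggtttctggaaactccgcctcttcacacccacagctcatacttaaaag
Ifit3 (chr19:34583279-34583528, plus strand): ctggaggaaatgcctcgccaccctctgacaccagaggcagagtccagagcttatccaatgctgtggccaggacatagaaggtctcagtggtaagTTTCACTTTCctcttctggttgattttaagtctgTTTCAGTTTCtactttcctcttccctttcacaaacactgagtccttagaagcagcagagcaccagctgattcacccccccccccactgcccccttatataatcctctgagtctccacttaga
Stat2 (chr10:128270248-128270497, plus strand): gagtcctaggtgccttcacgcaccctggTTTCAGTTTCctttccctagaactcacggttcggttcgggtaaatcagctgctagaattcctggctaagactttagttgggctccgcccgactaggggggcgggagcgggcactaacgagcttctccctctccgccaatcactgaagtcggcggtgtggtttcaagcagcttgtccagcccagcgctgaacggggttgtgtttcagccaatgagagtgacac
Ifit3 holds 2 matches, from 156 to 113 bases before its start, and Stat2 holds 1, from 222 to 213 bases before its start. In 16 of the 22 immediate early genes with a window, the cyclic AMP response element TGACGTCA was present in 2 (12.5%, against 2.03% of all genes), the serum response CArG box in 1 (6.25%, against 1.81%) and the E-box CACGTG in 3 (18.8%, against 8.09%). The interferon element was also present in 3 of these 16 (18.8%). A match describes letters in the window, not binding. The interferon list was made of interferon-stimulated genes, so a high share of the interferon element was likely beforehand. That share says nothing about diet or injury here.

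Other genes that crossed with an interaction below 0 were mostly low in abundance. Sox12, a transcription factor of the SoxC group expressed in developing neurons (chromosome 2, 152393611 to 152398063), had the smallest p of this direction. It was at 11.2, 11.3 and 9.95 CPM in the purified sham libraries, 15.2, 18.3 and 12.4 in the purified injured, 13.7, 12.9 and 15.4 in the fish oil sham and 9.23, 11.1 and 8.04 in the fish oil injured. Every neighbouring pair of groups was separated. The interaction was -1.07 ± 0.24. Plekhd1 (chromosome 12, 80692591 to 80724214) had the largest crossing of this direction among genes with a mean of at least 1 CPM, at 1.98, 1.15 and 1.85 CPM in the purified sham libraries, 2.31, 9.86 and 3.001 in the purified injured, 5.72, 2.82 and 2.99 in the fish oil sham and 1.53, 2.56 and 2.098 in the fish oil injured. The highest value was that of purified injured replicate 3, the library highest in olfactory bulb genes, and the interaction of -2.50 ± 0.73 became -1.59 without it. Fpgs, which adds glutamate to folates (-0.93), the germ-cell RNA-binding protein Ybx2 (-1.19) and Crip3 (-0.89) completed the 6 with the largest crossing. Prkcd, a protein kinase C isoform typical of thalamic neurons, was among the 10 smallest p below 0, at -1.11 ± 0.30. Rnf215 (-0.73 ± 0.19), Tgfbr3l (-1.58 ± 0.41), Lmo1 (-1.64 ± 0.43), the basement membrane protein Hmcn1 (-1.66 ± 0.45) and Dolpp1 (-0.63 ± 0.18) made up the 10 smallest p, among genes with a mean of at least 1 CPM, together with those named. With the other-tissue scores as covariates, Tgfbr3l was at -0.57, Hmcn1 at -0.67, Rnf215 at -0.40 and Crip3 at -0.19.

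In the other direction stood Enpp2 and the choroid plexus genes. Enpp2, which encodes autotaxin, the enzyme that makes lysophosphatidic acid, and is abundant in choroid plexus and oligodendrocytes, was at 289.5, 521 and 328 CPM in the purified sham libraries, 287, 222 and 192 in the purified injured, 235, 347 and 213 in the fish oil sham and 427, 1559 and 1632 in the fish oil injured. The groups did not overlap in either diet, but fish oil injured replicates 3 and 4 were over 3 times the third. On the purified diet the separation was a near tie, with sham replicate 2 at 289.5 CPM and injured replicate 2 at 287. Ttr, the thyroxine carrier that choroid plexus epithelium makes in bulk, was at 17.3, 434 and 17.5 CPM in the purified sham libraries, 14.1, 9.82 and 23.4 in the purified injured, 20.8, 50.1 and 20.8 in the fish oil sham and 186, 2417 and 2256 in the fish oil injured. The injured fish oil libraries were the highest for it apart from purified sham replicate 3, which exceeded fish oil injured replicate 2. All 16 choroid plexus genes had an interaction above 0, with a median of 4.62, and 15 (against 2.85% of all genes) had an unadjusted p under 0.05. F5 (6.43 ± 1.23), Folr1, the folate receptor of this epithelium (7.14 ± 1.44), the bicarbonate transporter Slc4a5 (9.34 ± 1.92), the tight junction protein Cldn2 (7.17 ± 1.49), Kcne2 (6.78 ± 1.44) and Kl (4.52 ± 1.00) were among the 10 smallest p above 0 of genes with a mean of at least 1 CPM. With the other-tissue scores, of which choroid plexus is one, as covariates, the list median was 0.15 and Enpp2 was at 0.28. The axonemal dynein Dnah6 (3.63 ± 0.77) had the smallest p of the 16 genes of ependyma and motile cilia, whose median was 1.45 and, without purified sham replicate 2, 0.35. The olfactory bulb list had a median of -4.52, and -1.04 without purified injured replicate 3, where Cdhr1 was 522 CPM against 1.87 to 25.9 in the other 11. The striatal list had a median of -0.73, which turned to 1.27 without fish oil sham replicate 2. Without purified sham replicate 4, also high in these genes, it was -1.57. The part of neighbouring tissue in the other results was not tested. Fits with the other-tissue scores cannot tell it apart from a difference between groups, since the choroid plexus score itself followed group. Its mean was 2.67 in fish oil injured libraries and -0.36, -1.30 and -1.01 in purified sham, purified injured and fish oil sham ones. Such a fit also shrinks any gene that differs in the fish oil injured group.

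Vascular genes, which the study's title names, showed smaller values in both directions. Slco1c1, the thyroxine transporter of brain endothelium and astrocytes (chromosome 6, 141524368 to 141570177), was at 53, 56.4 and 61.6 CPM in the purified sham libraries, 46.9, 50.9 and 50.2 in the purified injured, 36.7, 40.4 and 44.1 in the fish oil sham and 46.6, 61.4 and 72.04 in the fish oil injured. Its injured libraries were all below the shams on the purified diet and all above them on fish oil. The interaction was 0.78 ± 0.20, and 0.29 with the other-tissue scores; the gene is also expressed in choroid plexus. The efflux pump Abcc4 was at 0.58 ± 0.25, or 0.26 with these scores, and 14 of 19 blood-brain barrier transport genes were above 0, with a median of 0.15, and 0.06 without purified injured replicate 4. Of 20 brain endothelial genes, 15 were above 0, with a median of 0.26, and 0.08 without fish oil sham replicate 2. Ly6c1, an endothelial surface marker, was at 17.04, 21.5 and 27.7 CPM in the purified sham libraries, 12.7, 17.4 and 10.1 in the purified injured, 8.44, 10.3 and 9.57 in the fish oil sham and 10.9, 8.91 and 13.3 in the fish oil injured, with an interaction of 0.95 ± 0.33. Ly6a, its neighbour in the same gene cluster, gave 1.06 ± 0.39. Reads of these related genes may be shared. Purified sham replicates 3 and 4 were the highest libraries for both, and the fish oil groups overlapped. The purified groups of Ly6c1 overlapped as well, with sham replicate 2 at 17.04 CPM and injured replicate 3 at 17.4. Abcc9, a potassium channel subunit of pericytes, was at 0.74 ± 0.29, while 11 of 15 pericyte and smooth muscle genes were below 0.

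Matrix and meningeal genes were on the other side. Of 31 collagen and matrix genes, 26 had an interaction below 0, with a median of -0.49, an injury median of 0.44 on the purified diet and -0.16 on fish oil. With a surrogate variable the median interaction of this list was -0.07. Col6a1, a collagen VI chain of vessel walls and meninges, was at 31.5, 41.5 and 51.5 CPM in the purified sham libraries, 116, 93.8 and 39.5 in the purified injured, 52.7, 33.6 and 32.3 in the fish oil sham and 30.2, 30.3 and 27.3 in the fish oil injured. Its interaction was -1.44 ± 0.48. Col8a1, which stands apart at 3.29 ± 0.80, turned to -0.22 with the other-tissue scores. Meningeal fibroblast genes leaned with the matrix list: 14 of 16 were below 0 with a median of -0.83, and the mean centred log2 CPM of the list was highest in purified injured replicate 4 (0.89) and fish oil injured replicate 3 (0.92). Without the first of these libraries the median was -0.31 and without the second -1.47. With a surrogate variable it was -0.18. The part of meningeal tissue in the collagen values was not tested.

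Glial, immune and metabolic lists had no member past the adjusted threshold. Of 13 homeostatic microglia genes, 12 were below 0 (median -0.30), and of 17 genes of border macrophages, leukocytes and MHC class II, 15 were (median -0.62), none with a p under 0.05. The second median was -0.28 without purified injured replicate 4, -1.28 without fish oil injured replicate 3 and -0.09 with a surrogate variable, and that of the microglia genes was -0.13 with a surrogate variable. All 16 myelin genes were above 0 (median 0.40), with an injury median of -0.68 on the purified diet and -0.18 on fish oil. Their median interaction was 0.07 without fish oil injured replicate 2 and 0.73 without fish oil injured replicate 3. With the other-tissue scores as covariates it was 1.99. Of 12 oligodendrocyte precursor genes, 11 were below 0 (median -0.25). Of 18 circadian clock genes, 16 were above 0 (median 0.24), and the repressors Bhlhe40 (0.66 ± 0.24) and Per2 (0.48 ± 0.22) had the smallest p of the list; the median was 0.12 without purified sham replicate 2. Of 22 genes induced by unfolded proteins or integrated stress signalling, 18 were above 0 (median 0.20), with Xbp1 at 0.42 ± 0.16, and of 15 heat shock genes 12 were (median 0.25), with the inducible chaperone Hspa1a at 1.397 ± 0.60, and 0.93 without fish oil injured replicate 2.

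Lipid and energy lists had medians between -0.27 and 0.16. Cholesterol synthesis had a median interaction of -0.12, with 16 of 20 genes below 0, fatty acid synthesis and desaturation -0.13, and fatty acid oxidation and PPAR targets 0.04. In eicosanoid synthesis 13 of 18 genes were below 0 (median -0.27); Ptgs2 was above 0, and the prostaglandin D synthase Hpgds was at -0.48 ± 0.21. Of 27 nuclear oxidative phosphorylation genes, 21 were above 0 (median 0.12), and of 13 mitochondrial genome transcripts 12 were (median 0.16, but 0.01 without purified sham replicate 4), with mt-Nd3 at 1.23 ± 0.39. Glycolysis had a median of 0.03 and antioxidant genes of 0.02.

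**Figure D5:**
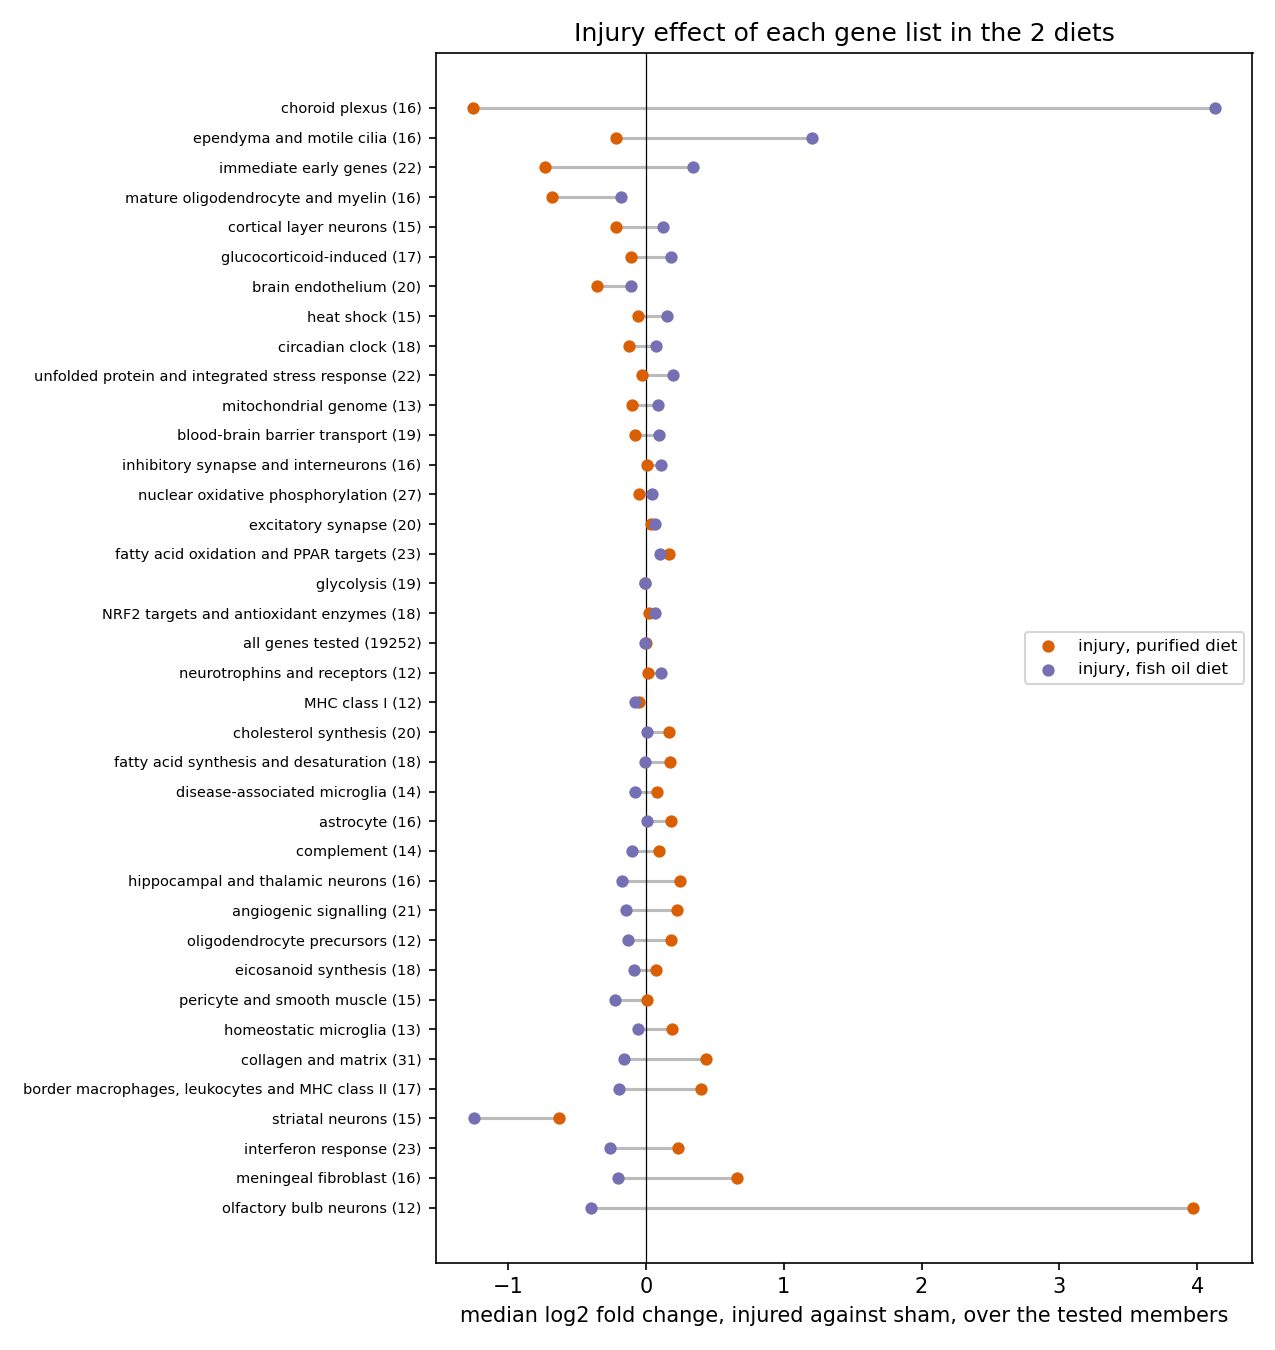
Median injury log2 fold change over the tested members of each gene list (number of members in brackets) on the purified diet (orange) and on fish oil (violet), ordered by median interaction. Choroid plexus and olfactory bulb lists have the widest gaps; immediate early genes (-0.73 and 0.34) and interferon response genes (0.23 and -0.26) lie on opposite sides of 0 in the 2 diets.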

How the data were processed

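RNA from cortical tissue was sequenced in 12 libraries. Per the submitters' processing notes, STAR 2.5.2a, featureCounts 1.4.3-p1 and the mm10 build were used; no source used here gives the annotation release or strand setting, and reads of overlapping, antisense or closely related genes may be mixed. The files deposited by the authors hold raw counts per gene, not normalized. Values of 2 outnumbered values of 1 (20514 against 11222), so both mates of a pair may have been counted. Of 53379 identifiers, 53274 matched GENCODE M21 without version.

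Genes passing filterByExpr (minimum count 10) were scaled by TMM and fitted with edgeR 4.0.16 (glmQLFit, robust; R 4.3.3) on 4 group means, with 8 residual degrees of freedom and a biological coefficient of variation of 0.289; p-values were adjusted over 19252 genes with a threshold of 0.05. Standard errors came from the F statistic. Separation of libraries was judged on log2 CPM with a prior count of 2. The 37 gene lists and the members were chosen with earlier results of these data known. Named genes were those past the threshold (none), the 10 smallest p per direction and the 6 largest crossings per direction with a mean of at least 1 CPM, and up to 2 members per list with the smallest p; predicted genes and pseudogenes were left out, and some genes the rule picked are not reported here. Replicates of a group differed beyond sampling noise in every pair. Alternatives used DESeq2 1.42.0, limma 3.58.1, sva 3.50.0, other scalings, filters, covariates, and fits without each library. In simulated counts edgeR called 6 of 19052 unchanged genes.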

Additional observations from a re-analysis of the deposited data

How the results depend on the processing

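Apart from the 21 genes DESeq2 called, every alternative fit called 0 genes for the interaction. The smallest adjusted p was 0.0633, without fish oil injured replicate 2. The replicate numbers did not pair the libraries: correlations of same-numbered deviations ran from -0.371 to 0.278, with 3 of 18 over 0.1, and the fit with the replicate number as a block called 0 genes, with 792 at an unadjusted p under 0.05. In every group, the library names of replicates 3 and 4 share their first number and replicate 2 has another. The labels do not say what this number means. A limma-voom fit with a correlation by it (-0.256) called 0 genes, with 1686 at an unadjusted p under 0.05. The counts of crossing genes moved with the setting. By size they were 1371 and 1990 with no filter on low counts, 80 and 149 with at least 1 CPM in 3 libraries, and 772 and 775 with other-tissue scores as covariates; leaving out 1 library gave 263 to 564 and 464 to 917. Without overlap they were 61 (lower on fish oil) with no filter and 25 (higher) with at least 1 CPM. They were 115 and 104 without the libraries highest in bulb and striatal genes (purified injured 3, fish oil sham 2). Without replicate 2 of both injured groups they were 177 and 165. That alternative was chosen after seeing the data, like the removal of GC and length trends. Leaving out 1 library gave 55 to 221 and 60 to 259; a group of 2 libraries separates more easily by construction. With other-tissue scores 4 of the 49 and 3 of the 34 genes lost the sign of an injury effect. With other-tissue scores the interaction turned to 0.0204 for the oligodendrocyte precursor median, -0.409 for Ttr, -0.569 for Kl, 0.295 for Lhfpl3, 0.211 for Vcan, 0.41 for Itgax, 0.0141 for H2-Q4 and -0.22 for Col8a1. The striatal median turned to 0.207 with a correlation by library name, 0.177 with a surrogate variable, 0.982 without those 2 libraries and 1.27 without fish oil sham replicate 2 alone, where Penk was 0.982 and 0.43 and Rarb 0.289 and 0.401 in the same order; leaving out 1 library gave -1.57 to 1.27 for this median, -3.94 to 0.43 for Penk and -1.57 to 0.401 for Rarb. The cause was not tested.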

Other observations

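Among the 49 genes lower after injury on the purified diet and higher on fish oil, most were abundant and had small effects. These examples were chosen after their values were seen. Eif4e, the cap-binding translation factor, had an interaction of 0.31, Dst, a linker of cytoskeletal filaments, 0.53, Spred1, an inhibitor of Ras signalling, 0.58, and Atg3, an enzyme of autophagy, 0.45. In the opposite set, Gstz1, an enzyme of tyrosine breakdown, was at -0.37, Atat1, the tubulin acetyltransferase, at -0.38, and Vac14, a scaffold of phosphoinositide synthesis, at -0.38. Ngfr, the p75 neurotrophin receptor, lay opposite to Bdnf, at -2.43 ± 0.87. Its highest value, 7.42 CPM, was in fish oil sham replicate 2, the library highest in striatal genes. Without that library the interaction was -1.40, and without it and purified injured replicate 3 it was -0.88.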
